A study of Mus musculus with 4 samples.

Results

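Angptl4, together with the receptor genes and lipid-use targets of the PPAR pathway, was described in C2C12 myoblasts depleted of Fxr1. The members were 8 genes: the PPAR receptors Ppara, Ppard and Pparg, and the targets Angptl4, Pdk4, Cpt1a, Cd36 and Plin2. They comprised all probes of the array design annotated with 1 of these names, which were 11 of 55681 probes, printed in 31 of 59305 spots other than controls. The 8 names were 8 of 36413 gene names of the design. The members were chosen by values of the siFxr1 against siControl comparison itself: Angptl4 because it was among the transcripts the study selected on this contrast, and the other 7 genes with earlier results of these arrays known. Differences between siFxr1 and siControl are therefore given as a description, with no test.

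C2C12 is a clonal mouse myoblast line that can form myotubes in culture. One group was transfected with siFxr1, a short interfering RNA against exon 14 of Fxr1, which lowers the RNA transiently and leaves the gene intact. The other group, siControl, received a random control RNA matched in GC content with the same transfection reagent. Total RNA of 2 independent experiments, with 1 array per condition in each, was labelled with Cy3 and hybridised to 4 one-colour Agilent mouse arrays. The RNA integrity number was 8 for siFxr1 in experiment 1 and 9 for the other arrays. The siFxr1 and siControl arrays of an experiment shared a slide, so the slide and the experiment cannot be told apart. The siRNA is shown because it defines the siFxr1 group.
siFxr1 (exon 14), 5′ to 3′: gcaauccauacagcuuacuugaua

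PPARs are nuclear receptors that are switched on by fatty acids and their derivatives and that bind DNA as heterodimers with RXR receptors, at direct repeats of a short hexamer. In muscle, PPARδ and PPARα raise the expression of genes for uptake and oxidation of fatty acids, while PPARγ is best known as the receptor that drives adipocyte formation. ANGPTL4 is secreted and inhibits lipoprotein lipase, and PDK4 switches off the pyruvate dehydrogenase complex. CPT1A transfers long-chain acyl groups from CoA to carnitine for entry into mitochondria. CD36 takes up fatty acids at the cell surface, and PLIN2 coats lipid droplets.

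Promoter windows were matched by gene symbol in RefSeq (GRCm38.p6) for 7 of the 8 genes. Each window runs from 250 bases before to 50 bases after an annotated start site. The windows of the target genes with an entry, Pdk4, Cpt1a, Cd36 and Plin2, are shown because the group is defined by PPAR control, with the core hexamer AGGTCA on either strand in capitals.
Pdk4, chr6:5496229-5496528, minus strand: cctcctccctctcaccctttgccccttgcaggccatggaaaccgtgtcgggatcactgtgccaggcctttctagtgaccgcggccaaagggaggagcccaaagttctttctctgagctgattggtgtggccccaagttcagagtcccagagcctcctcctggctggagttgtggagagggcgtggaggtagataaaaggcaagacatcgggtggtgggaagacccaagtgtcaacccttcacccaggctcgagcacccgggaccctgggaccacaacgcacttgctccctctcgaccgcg
Cpt1a, chr19:3323051-3323350, plus strand: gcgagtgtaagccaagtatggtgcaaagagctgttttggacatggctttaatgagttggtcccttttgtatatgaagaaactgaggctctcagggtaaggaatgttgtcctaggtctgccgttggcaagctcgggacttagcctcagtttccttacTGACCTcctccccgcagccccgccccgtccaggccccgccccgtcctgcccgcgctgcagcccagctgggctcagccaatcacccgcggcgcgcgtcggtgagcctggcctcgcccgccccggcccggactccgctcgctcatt
Cd36, chr5:17835847-17836146, minus strand: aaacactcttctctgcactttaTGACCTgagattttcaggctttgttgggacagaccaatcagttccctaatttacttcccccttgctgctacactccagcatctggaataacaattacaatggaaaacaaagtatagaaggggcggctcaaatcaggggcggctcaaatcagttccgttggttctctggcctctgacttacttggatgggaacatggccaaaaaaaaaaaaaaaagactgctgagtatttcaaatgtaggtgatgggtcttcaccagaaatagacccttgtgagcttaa
Plin2, chr4:86670010-86670309, minus strand: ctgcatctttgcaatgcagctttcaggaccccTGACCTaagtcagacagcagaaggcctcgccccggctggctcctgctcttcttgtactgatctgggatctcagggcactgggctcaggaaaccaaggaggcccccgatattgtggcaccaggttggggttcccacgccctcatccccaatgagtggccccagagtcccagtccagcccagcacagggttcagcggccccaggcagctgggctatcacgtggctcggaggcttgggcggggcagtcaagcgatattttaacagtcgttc
The Cpt1a, Cd36 and Plin2 windows each held 1 such hexamer, read as TGACCT in the printed strand and starting 94, 228 and 218 bases before the start site, and the Pdk4 window held 0. The hexamer was found in 16.3% of all 32851 windows of 300 bases. The direct repeat with 1 base between the copies, AGGTCANAGGTCA, was searched on both strands as well, was found in 0.0396% of the windows and was absent from those of the members. These matches describe letters only, in a window that does not reach introns or distant sequence.

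Signals are given as log2 of the background-corrected signal after quantile normalization over the 4 arrays, and differences are siFxr1 minus siControl on that log2 scale, where 1 is 2-fold. Because a signal depends on the probe, levels were compared between arrays and never between genes. A probe was taken as well above background on an array when the scanner software marked at least 0.5 of its spots so. Between 45.4% and 52.9% of probes met this on each array, and no spot was saturated. Of the 11 member probes, 9 were well above background on all 4 arrays, with at least 1 probe for each of the 8 genes. The 2 Fxr1 probes had mean differences of -3.61 and -3.31, in the direction of the labels. Over all probes limma called 0 of 55681 (0%) between conditions at a B value above 0 and 2764 (4.96%) at an unadjusted p under 0.05. The 2 Fxr1 probes were not called either, with a B value of -4.33 each. A missing call therefore does not show that a gene was unchanged.

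**Figure D1:**
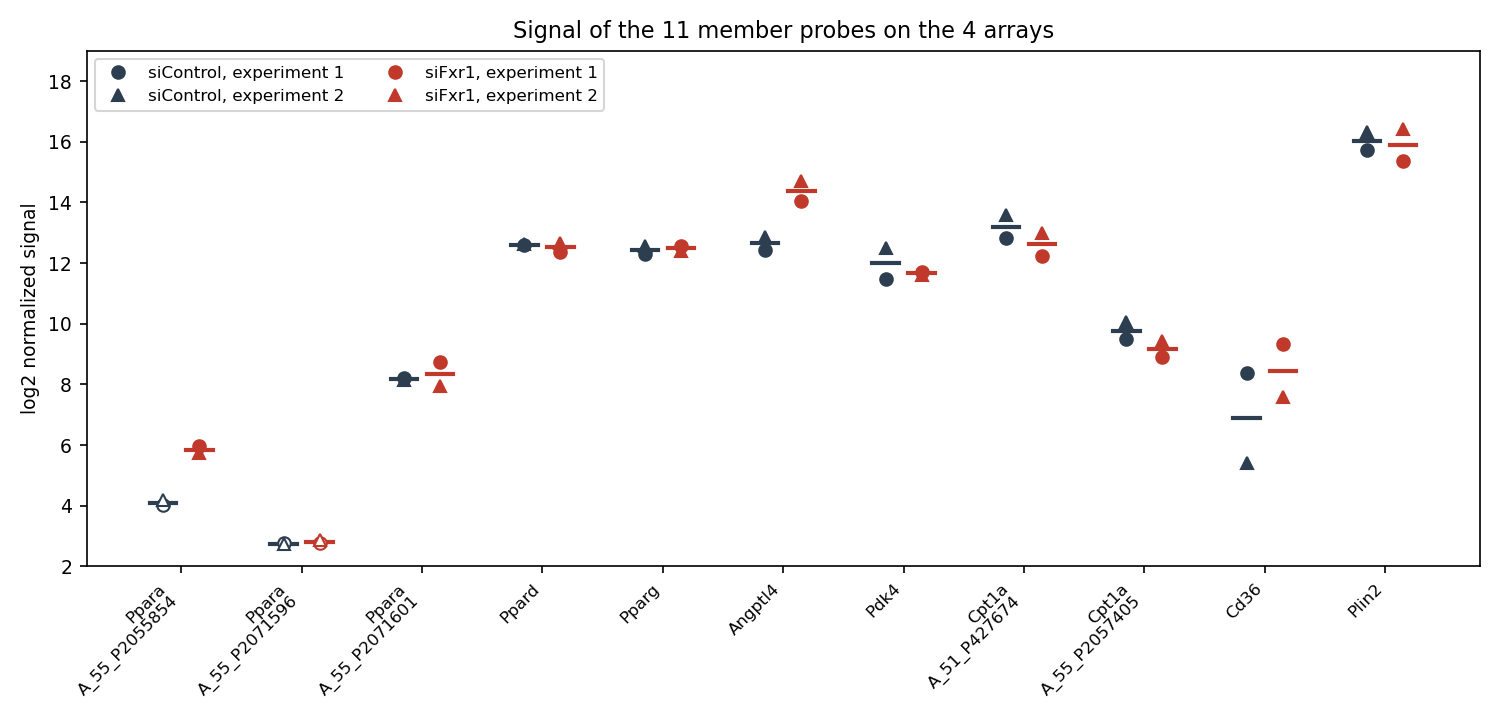
Log2 normalized signal (vertical axis) of the 11 member probes on the 4 arrays, siControl in dark blue and siFxr1 in red, with circles for experiment 1, triangles for experiment 2 and bars for the mean of 2 arrays. Open symbols mark groups in which a probe was not well above background on any array. The siFxr1 arrays lie above the siControl arrays for Angptl4 (14.04 and 14.71 against 12.43 and 12.86), while Ppard and Pparg arrays lie close together.

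The receptor genes Ppard and Pparg had nearly the same signal in siFxr1 and siControl, and the brightest Ppara probe went opposite ways in the experiments. Ppard, the receptor most abundant in muscle, measured 12.38 and 12.65 in siFxr1 and 12.59 and 12.63 in siControl, in experiments 1 and 2. The siControl arrays lay between the siFxr1 arrays. Its difference was -0.20 in experiment 1 and 0.02 in experiment 2. As in any bulk sample, fewer expressing cells and less RNA per cell cannot be told apart here.

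Pparg measured 12.56 and 12.40 in siFxr1 and 12.30 and 12.55 in siControl, with overlapping groups. The probe was printed in 10 spots, whose SD within an array was 0.039 to 0.055. Its difference was 0.26 in experiment 1 and -0.15 in experiment 2, with a mean of 0.05. Its probe lies at chr6:115440213-115440272 on mm9, the build of the array design.

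The 3 Ppara probes did not give the same picture. The brightest, at chr15:85632534-85632593, measured 8.74 and 7.95 in siFxr1 and 8.21 and 8.15 in siControl, so the siFxr1 arrays enclosed the siControl arrays. Its difference was 0.53 in experiment 1 and -0.20 in experiment 2. The probe at chr15:85632110-85632169 was well above background on both siFxr1 arrays and on neither siControl array, at 5.95 and 5.72 against 4.04 and 4.17. On the background-corrected signal, set against the lowest signal measured well above background on each siControl array, siFxr1 was at least 2.41-fold higher. Before correction its mean signal was 2.34 and 2.76 times the local background in siFxr1 and 1.88 and 2.17 times in siControl. The difference was 0.42 with normexp background correction, without background correction and in the authors' table. With median signal minus local background it was 0.69. These values lie below that bound, which therefore depends on the background correction. The probe at chr15:85637193-85637252 was not well above background on any array. The probes of Ppara therefore disagree, and 1 of the 3 was measured on both sides.

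Angptl4 had the largest difference of the 8 genes at probes measured on every array. It measured 14.04 in experiment 1 and 14.71 in experiment 2 in siFxr1, against 12.43 and 12.86 in siControl (probe at chr17:33911880-33911939, minus strand, mm9). The order of the arrays was siControl in experiment 1, siControl in experiment 2, siFxr1 in experiment 1 and siFxr1 in experiment 2, and the groups did not overlap. The means were 14.37 ± 0.47 in siFxr1 and 12.65 ± 0.31 in siControl (SD, n = 2). The difference was 1.61 in experiment 1 and 1.85 in experiment 2, with a mean of 1.73, or 3.31-fold. Its mean signal was 97.2 to 428 times the local background. By mean difference Angptl4 was number 94 among 17847 genes measured well above background on all arrays. These values are those on which the gene was chosen.

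Lpl, which encodes the lipase that ANGPTL4 inhibits and was singled out for that role after its values were seen, measured 12.14 and 11.68 in siFxr1 and 12.27 and 11.22 in siControl. Its difference was -0.14 in experiment 1 and 0.46 in experiment 2, so it did not keep 1 direction.

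Pdk4 measured 11.71 and 11.61 in siFxr1 and 11.47 and 12.51 in siControl (chr6:5433441-5433500, mm9). The siFxr1 arrays lay between the siControl arrays. The difference was 0.24 in experiment 1 and -0.90 in experiment 2, and the siControl arrays of the 2 experiments had a difference of -1.04 between them, larger in size than siFxr1 differed from siControl in either experiment.

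Cpt1a was lower in siFxr1 by nearly the same amount at both of its probes and in both experiments. The probe at chr19:3385374-3385433, printed in 10 spots, measured 12.24 and 13.00 in siFxr1 and 12.83 and 13.58 in siControl. The difference was -0.60 in experiment 1 and -0.57 in experiment 2, or 1.50-fold lower on average. The SD of the 8 or 9 spots used on an array was 0.039 to 0.058. The probe at chr19:3384060-3384119 measured 8.91 and 9.44 in siFxr1 and 9.50 and 10.05 in siControl, with differences of -0.59 and -0.60. At the first probe the groups overlapped, because siFxr1 in experiment 2 lay above siControl in experiment 1. At the other probe the siFxr1 arrays lay below both siControl arrays. Both probes interrogate RNA of the same cells and are not replicates of the condition.

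Cd36 was higher in siFxr1 in both experiments and varied more between arrays than any other member. It measured 9.33 and 7.58 in siFxr1 and 8.37 and 5.42 in siControl (chr5:17288600-17288659, mm9). The difference was 0.97 in experiment 1 and 2.16 in experiment 2, with a mean of 1.56. The groups overlapped, because siControl in experiment 1 lay above siFxr1 in experiment 2. Its mean signal was 10.5 and 6.07 times the local background in siFxr1 and 7.04 and 2.75 times in siControl, so siControl in experiment 2 was the dimmest. Without that array the mean difference was 0.09, but both siFxr1 arrays were then set against siControl of experiment 1. That value therefore mixes condition and experiment.

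Plin2, the droplet coat gene, measured 15.36 and 16.40 in siFxr1 and 15.74 and 16.31 in siControl (chr4:86302847-86302906, mm9), with overlapping groups. Its difference was -0.37 in experiment 1 and 0.09 in experiment 2.

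Counted over the 9 member probes well above background on all arrays, 2 were higher in siFxr1 in both experiments (Angptl4 and Cd36), 2 were lower in both (the Cpt1a probes) and 5 had opposite signs. Among all 23485 such probes 32.7% were higher and 31.1% lower in both experiments. The siFxr1 arrays lay above both siControl arrays for 1 of the 9 (Angptl4) and below for 1 (the dimmer Cpt1a probe), beside 15.3% and 14.5% of all such probes. Angptl4 was the 1 member probe at least 2-fold higher in both experiments, beside 1.12% of probes, and 0 were at least 2-fold lower, beside 1.3%. Over all 11 member probes 3 differed on average by at least 2-fold (Angptl4, Cd36 and the Ppara probe not measured in siControl), beside 7.88% of all probes. As the members were chosen on this contrast, nothing is read from these counts.

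**Figure D2:**
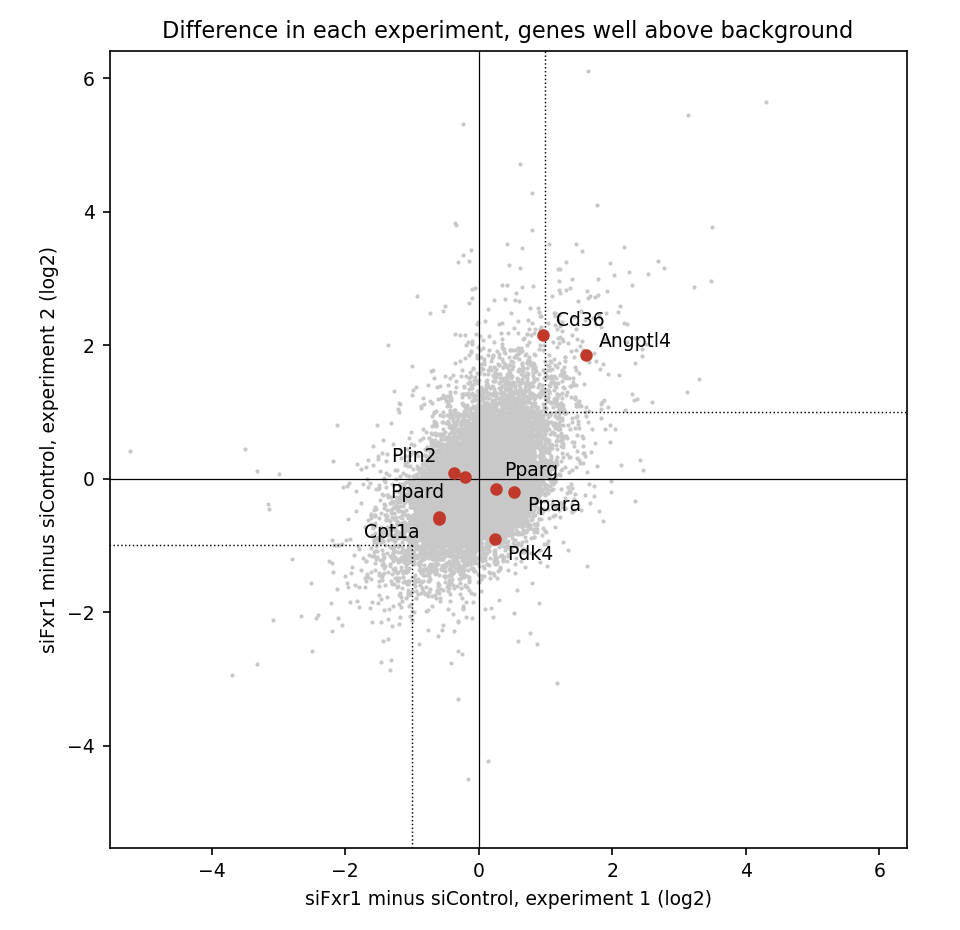
Difference siFxr1 minus siControl (log2) in experiment 1 (horizontal axis) and experiment 2 (vertical axis). Grey points are the 17847 genes well above background on all 4 arrays, 1 probe each, and red points are the 9 member probes (the Cpt1a probes coincide). Dotted corners mark 2-fold in both experiments. Angptl4, at 1.61 and 1.85, lies inside the upper corner, and Cd36, at 0.97 and 2.16, lies just outside it.

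The comparison of the experiments with each other, with the condition kept as a term, was not used to choose the members. It was tested with limma over all probes. Its SEs and p-values rest on how far the difference varied between siFxr1 and siControl, and not on repeated experiments. At a Benjamini-Hochberg adjusted p under 0.05, limma called 0 of 11 member probes, beside 0% of all probes, where the lowest adjusted p of any probe was 0.108. At an unadjusted p under 0.05 there were 3 member probes of 11 (Plin2, the brighter Cpt1a probe and Cd36), beside 20.1% of all probes. Among the 9 probes well above background, 2 were higher in experiment 1 in both conditions, beside 42% of all such probes, and 5 were higher in experiment 2, beside 33.6%.

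Cd36 differed most between the experiments, and by more than siFxr1 and siControl differed. It was higher in experiment 1 by 2.35 ± 0.39 (SE), or 5.11-fold, with an adjusted p of 0.130 in limma over all probes. The difference was 1.75 between the siFxr1 arrays and 2.95 between the siControl arrays. Cd36 was the 1 member at least 2-fold higher in experiment 1 in both conditions, beside 4.88% of probes. When the same fit was restricted to 25540 probes, those that both arrays of at least 1 condition measured well above background, limma called Cd36 with an adjusted p of 0.011, beside 17% of those probes. In the 6 alternatives that kept the condition term its adjusted p lay between 0.00035 and 0.011. In the other 5, which dropped that term, alone or together with 1 array, it lay between 0.18 and 0.70.

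Several other members were higher in experiment 2. The difference experiment 1 minus experiment 2 was -0.81 ± 0.23 (SE) for Plin2, with a limma adjusted p of 0.22. For Cpt1a it was -0.76 ± 0.19 at the brighter probe (adjusted p = 0.19 in limma) and -0.54 ± 0.19 at the other (adjusted p = 0.28). For Angptl4 it was -0.55 ± 0.20 (adjusted p = 0.29 in limma). Each of these probes was higher in experiment 2 in siFxr1 and in siControl alike. These differences depended on the scaling between arrays, except that at the dimmer Cpt1a probe. With each array scaled to its 75th percentile in place of quantile normalization, the differences were -0.21 for Plin2 and -0.37 for the brighter Cpt1a probe. They were -0.58 for the other Cpt1a probe and -0.11 for Angptl4. The adjusted p, in the same order, were 0.81, 0.78, 0.62 and 0.90 in limma. None was at least 2-fold higher in experiment 2 in both conditions, beside 5.08% of probes. For Ppard, Pparg and the brightest Ppara probe the differences between experiments were -0.16, -0.04 and 0.42, with adjusted p of 0.77, 0.97 and 0.53 in limma, and the scaling to the 75th percentile turned the sign for Ppard (0.18) and Pparg (0.29). For Pdk4 the difference was -0.47 (adjusted p = 0.59 in limma).

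**Figure D3:**
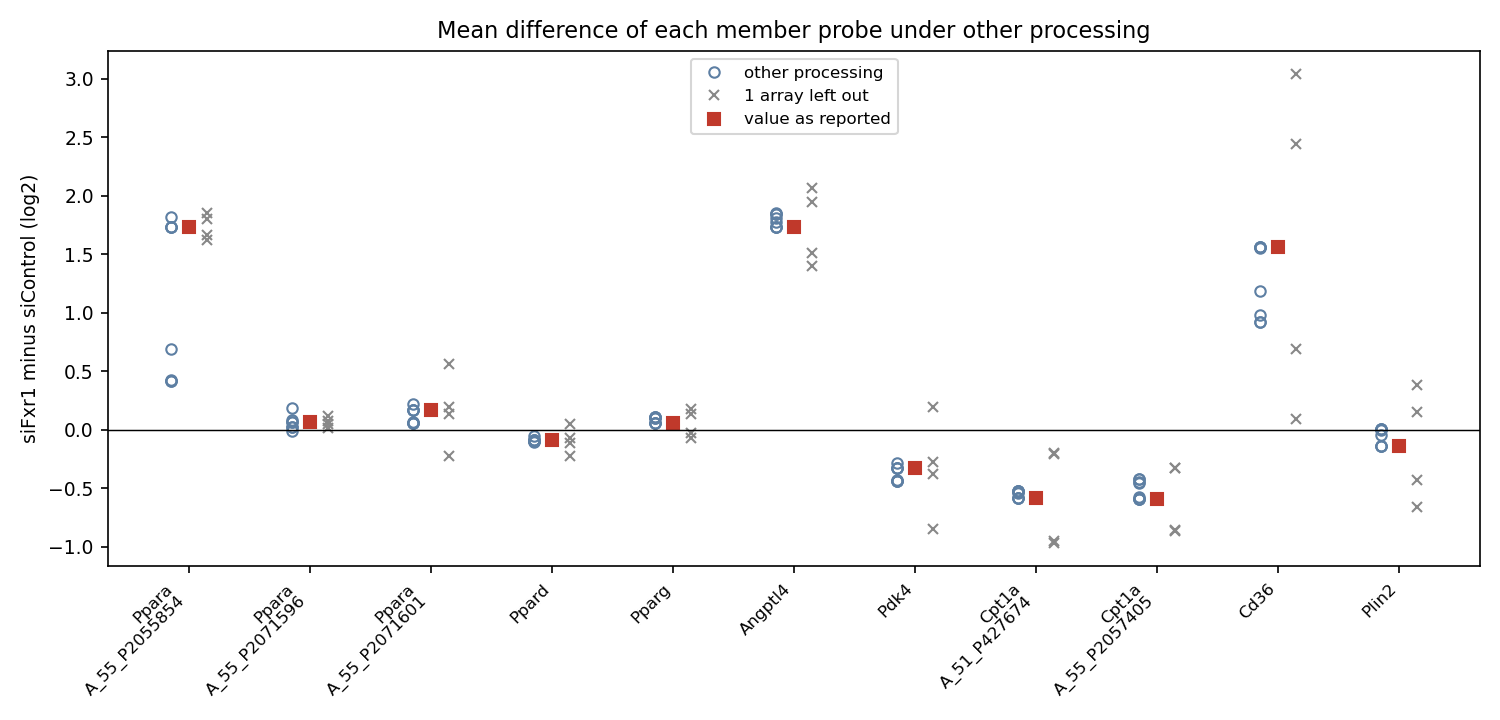
Mean difference siFxr1 minus siControl (log2, vertical axis) of each member probe as reported (red squares), under other processing of the same arrays (blue circles) and with 1 array left out (grey crosses). With 1 array left out, the value also carries the difference between experiments. Angptl4 stays between 1.39 and 2.06, Cd36 spreads from 0.09 to 3.04, and the Ppara probe not measured in siControl drops to 0.42 without background correction.

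Under the other processing settings, which included the normalized table of the authors, the Angptl4 difference lay between 1.73 and 1.85. With 1 array left out it lay between 1.39 and 2.06. Fits with 1 array left out had the condition as the only term and 1 incomplete pair. Their values therefore also carry the difference between experiments. The brighter Cpt1a probe lay between -0.58 and -0.52, and between -0.97 and -0.20 with 1 array left out. The Cd36 difference lay between 0.92 and 1.56. It was 0.69 without siFxr1 of experiment 1, 2.44 without siFxr1 of experiment 2, 3.04 without siControl of experiment 1 and 0.09 without siControl of experiment 2. The signs of Pdk4 and Plin2 depended on the setting. Pdk4 was between -0.44 and -0.29 in other processing and 0.19 without siControl of experiment 2, and Plin2 was between -0.14 and 0.01, and between -0.66 and 0.38 with 1 array left out.

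The genes with the pattern most like that of Angptl4 were named by the Euclidean distance between log2 signals centred over the 4 arrays, among 17846 other genes. They were Gm9640 at 0.14, Fcer1g at 0.21, Has1 at 0.21, Dnajc12 at 0.22 and Ppp1r1b at 0.25. Has1, a hyaluronan synthase, was higher in siFxr1 by 1.81 in experiment 1 and 1.64 in experiment 2, and Fcer1g, an adaptor of Fc receptors, by 1.86 and 1.72. With 4 arrays, such likeness describes these arrays and no more. The member probes well above background on all arrays lay farther away, at 1.78 (Pparg) to 2.95 (Cd36).

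The rest of the pathway was described by 12 gene lists, with 1 probe a gene, the brightest, and differences are given for experiments 1 and 2 in that order. Their names stand for what the genes are known for. In every list 0 genes were called between siFxr1 and siControl by limma. This was fixed by the 0 calls over all probes, Fxr1 included, so nothing about the lists is read from it. Over all 17847 genes well above background the median difference was 0.02, and 33.3% of genes were higher and 30.1% lower in siFxr1 in both experiments, with 1.22% past 2-fold upwards and 1.14% past 2-fold downwards in both. The median of the 8 members, at their brightest probe, was -0.02.

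**Figure D4:**
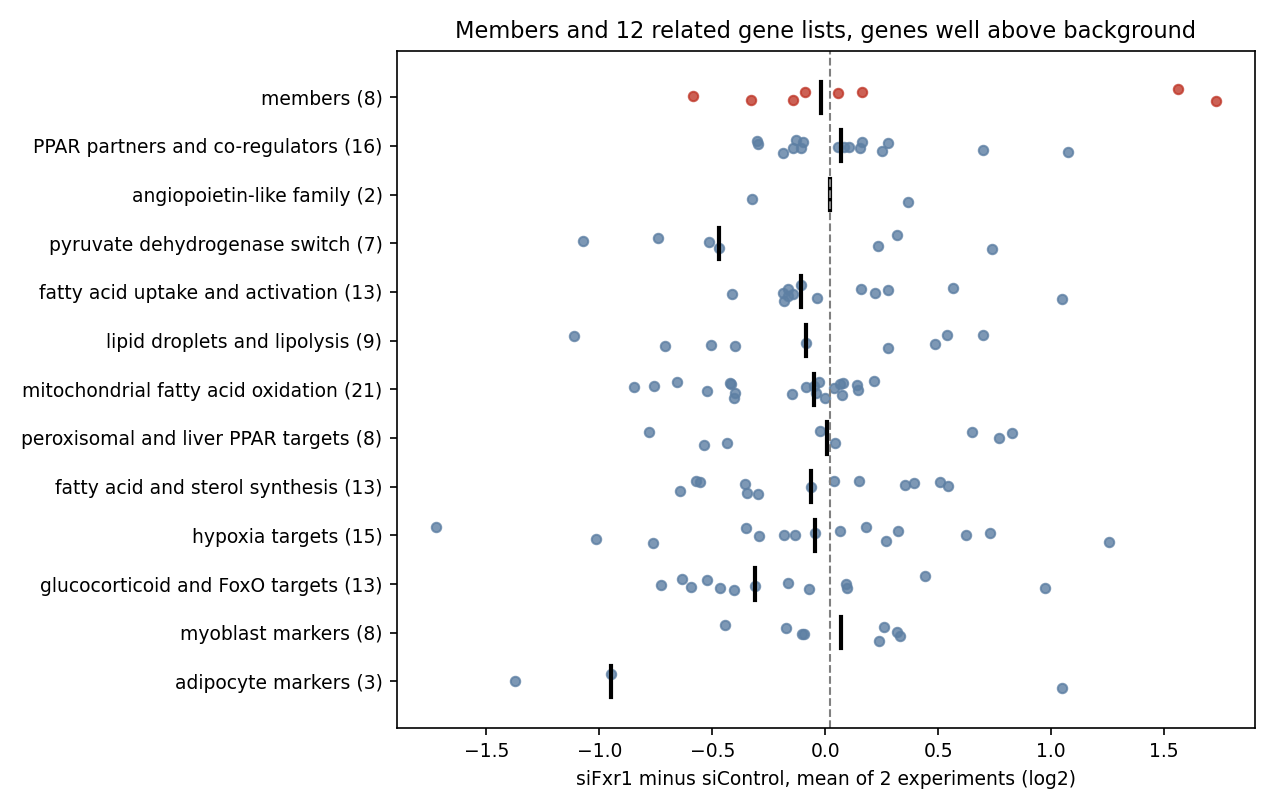
Mean difference siFxr1 minus siControl (log2, horizontal axis) of every gene well above background on all 4 arrays, for the members (red) and 12 lists (blue), with the number of genes in brackets. Black bars are list medians and the dashed line is the median of all such genes, 0.02. Members spread from -0.58 to 1.73 around a median of -0.02.

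Of the 16 PPAR partners and co-regulators, all measured, 6 were higher and 4 lower in both experiments, with a median of 0.07. Ppargc1a, a coactivator of PPARs that promotes mitochondrial biogenesis, was higher by 0.36 in experiment 1 and 1.79 in experiment 2. It was dim in siControl, at 6.70 and 6.60. Rxra, a heterodimer partner, was higher by 0.63 and 0.76, while Rxrb was lower (-0.53 and -0.07). In the angiopoietin-like family, 3 of 5 relatives of Angptl4 were not well above background on any array. Angptl6 was higher by 0.23 and 0.50, and Angptl2 lower (-0.22 and -0.42).

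The pyruvate dehydrogenase list, which holds the relatives of Pdk4, the phosphatases that oppose them and subunits of the complex, had 3 genes higher and 4 lower of 7, with a median of -0.47. The kinase gene Pdk1 was lower (-0.43 and -1.72), and so was Pdk2 (-0.86 and -0.62). The phosphatase gene Pdp2 was higher by 1.30 and 0.18. Of the 13 genes of fatty acid uptake and activation, 3 were higher and 5 lower, with a median of -0.11. Fabp4, a fatty acid binding protein, was higher by 0.43 and 1.67, and Acsl3, an acyl-CoA synthetase, by 0.57 and 0.56. Slc27a1, a fatty acid transporter, was lower (-0.26 and -0.56).

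Among genes of lipid droplets and lipolysis, 9 of 14 were measured, of which 4 were higher and 5 lower, with a median of -0.09. Plin4, a droplet coat gene like Plin2, was lower (-1.21 and -1.02), past 2-fold in both experiments. Pnpla2, the first lipase of triglyceride breakdown, was lower (-0.88 and -0.54), and its activator Abhd5 was higher by 0.66 and 0.74.

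Mitochondrial fatty acid oxidation, the path that Cpt1a opens, had 2 genes higher and 8 lower in both experiments of 21 measured, with a median of -0.05. Slc25a20, the carnitine carrier that acts after CPT1A, was lower (-0.69 and -1.01). Mlycd, which removes the malonyl-CoA that inhibits CPT1A, was lower (-0.65 and -0.86), and so was Eci1, an enoyl-CoA isomerase (-0.72 and -0.59). These 3 had the sign of Cpt1a, but they were named for having the largest differences that kept 1 direction. Genes lower in both experiments were 38.1% of those measured, beside 30.1% of all genes, and higher ones 9.52%, beside 33.3%. Nothing is read from these shares, as the lists were chosen with earlier results known. The remaining 11 genes of the list had opposite signs in the experiments.

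Of 8 measured peroxisomal and liver targets of PPARs, 3 were higher and 3 lower, with a median of 0.01. Ehhadh was higher by 0.70 and 0.96 and Vnn1 by 0.60 and 0.94, while Hsd17b4 was lower (-0.93 and -0.63). Ehhadh was dim, at 6.12 and 6.66 in siFxr1 and 5.43 and 5.71 in siControl, as was Vnn1 in siControl of experiment 2 (6.47). Differences of single list genes were not recomputed under other background corrections, on which the difference of a dim Ppara probe depended. Fatty acid and sterol synthesis had 5 genes higher and 7 lower of 13, with a median of -0.06. There Scd1, a fatty acid desaturase, was lower (-0.68 and -0.61), as were Fasn, the fatty acid synthase (-0.16 and -0.98), and Me1, an enzyme that supplies NADPH (-0.56 and -0.55).

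Angptl4 is also known as a target of hypoxia and of glucocorticoids, so lists for both were described. Of 15 measured hypoxia targets 5 were higher and 7 lower, with a median of -0.04. Ndrg1 was lower (-1.85 and -1.60) and so was Bnip3 (-0.84 and -1.18), whereas Egln3 was higher by 0.84 and 1.68. Of 13 measured glucocorticoid and FoxO targets 2 were higher and 7 lower, with a median of -0.31. Sgk1 was higher by 0.54 and 1.40, and Klf9 (-1.40 and -0.05) and Per1 (-0.51 and -0.75) were lower.

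The myoblast label was compared with its markers, of which 8 of 9 were well above background on all arrays. Among them were Myod1, Pax7, Des and Musk, and Myf5 was not on any. The list also holds Myog, which drives myoblast differentiation, so the count does not tell dividing from differentiating myoblasts. The median difference of the 8 was 0.07, with 3 higher and 3 lower. Myod1 was lower (-0.17 and -0.73), Pax7 higher by 0.39 and 0.26, and Musk by 0.03 and 0.60. Pax7 was dim, at 6.68 and 6.65 in siControl. Adipocyte markers were listed because Cd36, Fabp4 and Pparg are abundant in fat cells. Of these, 7 of 10 were not well above background on any array, among them Adipoq, Lep and Plin1. The log2 signals of the 10 markers, most of them at background, summed to 50.1 and 49.0 in siFxr1 and 46.9 and 50.1 in siControl, which overlap and give no measure of adipocyte content. Of the 3 measured, Cebpa was lower (-1.25 and -1.49), Slc2a4 lower (-0.26 and -1.63), and Fabp4 higher. Their part in the Cd36 values was not tested.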

How the data were processed

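The authors deposited, for each of 4 one-colour arrays, the spot intensity written by Agilent Feature Extraction 10.7.3.1, which detrends and corrects background within the array (design on mm9). They also deposited a table of quantile-normalized intensity, used as an alternative. In R 4.3.3 with limma 3.58.1, the corrected intensity of spots other than controls was put on the log2 scale and normalized between arrays by quantiles. Spots marked as outliers (5 member spot values, all of the Cpt1a probe with 10 spots) were then set to missing and the spots of a probe averaged. Samples were grouped by their labels. lmFit and eBayes were fitted on all 55681 probes, with the condition as the only term. The threshold was the B value above 0 of the study's methods, which do not state the terms of their model. The study reported changed transcripts at that threshold, Fxr1 among them. That selection was not reproduced here, in the main fit or in any alternative. A separate fit had experiment and condition as terms (Benjamini-Hochberg adjusted p under 0.05). The scripts were tested on simulated data with an added shift, independent noise and no other difference between experiments. That checks the code and does not show what the fits can detect on these arrays.

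The labels' experiment numbers pair the arrays, and siFxr1 and siControl deviations from their condition means correlated at 0.714 over 25523 probes. With 2 arrays per condition an exact permutation test cannot go below p = 0.333. In the fit with the condition as the only term, p-values rest on the spread between these 2 experiments only. In the comparison of experiments, SEs and p-values rest on how far the difference varied between siFxr1 and siControl. They do not measure the spread between repeated experiments. The number of arrays limits the precision. The members and lists were chosen with earlier results of these data known. Named were all members, up to 3 genes per list with the largest mean difference in 1 direction in both experiments, the 5 nearest to Angptl4, and Fxr1. Lpl, Fgf21, Myog and the markers given by name as measured or not (Des, Myf5, Adipoq, Lep and Plin1) fall outside this rule and were named after their values were seen. Lists were PPAR partners and co-regulators, the angiopoietin-like family, the pyruvate dehydrogenase switch, fatty acid uptake and activation, lipid droplets and lipolysis, mitochondrial fatty acid oxidation, peroxisomal and liver PPAR targets, fatty acid and sterol synthesis, hypoxia targets, glucocorticoid and FoxO targets, and myoblast and adipocyte markers. Probe symbols were updated by RefSeq accession for 26413 probes. Alternatives covered scaling to the 75th percentile, normexp with an offset of 50, median signal minus local background floored at 1, no background correction, the table of the authors, leaving out dim probes, a block for the experiment, a trended variance prior and each array left out.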

Additional observations from a re-analysis of the deposited data

How the results depend on the processing

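Between siFxr1 and siControl, limma called 0 probes, members included, in all 12 alternatives, with the experiment as a replicate block (0 probes, 4927 at an unadjusted p under 0.05) and with each array left out (0 to 0). The signs of Angptl4, both Cpt1a probes and Cd36 were kept in all 12. The count of member probes with a mean difference of at least 2-fold was 3, and 2 with median signal minus local background, where Ppara stayed below 2-fold. It was 1 with normexp, without background correction and in the authors' table, where Cd36 and Ppara stayed below 2-fold. It was 2 to 3 with each array left out.

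The comparison between experiments depended on the processing. In place of 0 of 55681 probes, limma called 5846 after scaling to the 75th percentile, 4496 with normexp and 3686 with median signal minus local background. It called 5092 of the 55681 without background correction and 5450 in the authors' table. Among the 25540 probes well above background it called 4342 (17%). Of the member probes, 11 before that filter, it then called 1, 2, 1, 3, 3 and 1. Cd36 was called each time, the brighter Cpt1a probe in 3 and Plin2 in 2 of the 6. Without a condition term it called 0. With each array left out it also called 0 (0 to 0), but 3 arrays leave no residual degrees of freedom beside a condition term, so those fits dropped that term too and do not show the effect of an array alone. The cause was not tested.

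List medians were recomputed under 2 alternatives. They moved to 0.036 (fatty acid uptake and activation) and 0.18 (myoblast markers) after scaling to the 75th percentile, and to -0.020 (PPAR partners and co-regulators), -0.025 (angiopoietin-like family) and -0.17 (lipid droplets and lipolysis) with normexp. The median of the members turned from -0.019 to 0.025 and 0.029 under these, and that of hypoxia targets from -0.043 to 0.028 after scaling to the 75th percentile. The siControl signal of Cd36 in experiment 2, at 2.75 times the local background, and that of Ppara limit their differences.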

Other observations

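Some listed genes differed between the experiments far more than between the conditions, as far as both were measured. They were singled out for that after their values were seen, so the values are a description with no test. Fgf21, a secreted metabolic hormone and PPARα target, measured 9.21 in siFxr1 and 10.16 in siControl in experiment 1. In experiment 2 it was dim, at 5.08 in siControl, and was not well above background in siFxr1. Its difference between conditions was therefore measured in experiment 1 only. Myog, which drives myoblast differentiation, measured 15.51 in siFxr1 and 15.64 in siControl in experiment 1, against 13.42 and 13.50 in experiment 2. Its siFxr1 minus siControl difference was -0.13 in experiment 1 and -0.08 in experiment 2. Culture, slide and labelling of an experiment cannot be told apart on these arrays.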
